A study of Mus musculus with 6 samples.

Results

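Latent TGF-β binding proteins (LTBPs), fibrillins and partner proteins that store, release or respond to TGF-β in the extracellular matrix were examined in the proximal mouse incisor. The 9 genes (*Ltbp1*, *Ltbp2*, *Ltbp3*, *Ltbp4*, *Fbn1*, *Fbn2*, *Emilin1*, *Thbs1* and *Tgfbi*) were picked by gene name, and all 9 were found among the 19270 genes of the table. Bulk RNA-seq was performed on tissue dissected from the proximal mesenchyme of the incisor of 3 control and 3 mutant mice, 4 days after tamoxifen at 1 month of age. The mutants carried *Gli1-CreER* and *Arid1b* fl/fl. Their Cre recombinase is driven by *Gli1* and acts after tamoxifen, so deletion can reach epithelium as well as mesenchyme derived from *Gli1*-expressing cells, and other cells keep *Arid1b*. The controls also received tamoxifen. They are given as wild type in the sample labels and as *Arid1b* fl/fl mice in the study's methods, and whether they carried Cre is not given in the sources used here.

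Cells secrete TGF-β in a latent form, still bound to its propeptide, and LTBPs attach this latent complex to the matrix. Fibrillins assemble into microfibrils, the thin matrix filaments to which LTBPs dock, and the stored ligand signals only after integrins, thrombospondin or proteases release it. The incisor of the mouse grows throughout life from mesenchymal stem cells around the neurovascular bundle, and TGF-β family signals are known to guide the differentiation of their progeny. The comparison of mutants with controls asks how expression in this tissue differs after loss of *Arid1b*, a subunit of a chromatin remodeling complex.

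The upstream sequences of *Tgfbi* and *Ltbp2* are shown because *Tgfbi* is named for its induction by TGF-β and had the highest level per kilobase of the 9 genes, and *Ltbp2* is the only gene with a higher mean in the mutants and a single start in the promoter table. Both stretches come from RefSeq promoters on GRCm38.p6 and end where exons of GENCODE vM21 begin, on chromosome 13 from 56609336 to 56609522 (plus strand) for *Tgfbi* and on chromosome 12 from 84876533 to 84876741 (minus strand) for *Ltbp2*. Capitals mark the SMAD core motif CAGAC or its reverse complement GTCTG.
Tgfbi: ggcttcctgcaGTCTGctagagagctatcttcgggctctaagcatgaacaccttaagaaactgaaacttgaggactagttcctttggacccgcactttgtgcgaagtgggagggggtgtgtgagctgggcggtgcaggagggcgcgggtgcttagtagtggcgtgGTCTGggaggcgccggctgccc
Ltbp2: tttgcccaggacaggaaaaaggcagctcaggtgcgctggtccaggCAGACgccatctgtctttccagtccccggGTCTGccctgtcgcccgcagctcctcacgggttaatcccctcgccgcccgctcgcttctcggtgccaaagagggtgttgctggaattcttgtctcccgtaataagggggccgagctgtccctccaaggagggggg

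Each stretch held the SMAD core motif 2 times. Within the 250 bases before a RefSeq start, the motif was present on either strand in 42.2% of 32851 windows, so its presence is common. Windows were found for 7 of the 9 genes, without *Fbn2* and *Thbs1*. Of these 7, *Emilin1*, *Ltbp1*, *Ltbp2*, *Ltbp3* and *Tgfbi* held the SMAD core motif, and *Fbn1* and *Ltbp4* did not. For *Fbn1* all 250 bases lie in exons of GENCODE vM21, so its upstream sequence was not searched. Overlap with exons was checked only for *Fbn1*, *Tgfbi* and *Ltbp2*, so other windows may also hold exon bases. The AP-1 motif TGANTCA, found in 6.75% of all windows on either strand, was in no window of these 7 genes. *Ltbp4*, with 3 annotated starts, held 3 to 7 copies of the GC box GGGCGG or its reverse complement in each window, against 1 or more copies in 32.7% of all windows. In 2 of its windows the copies had the same spacing, so these windows may overlap and share copies. The windows of *Ltbp4* were 64.4% to 79.2% GC, against a median of 52.4% over all windows. A match of letters is a description and not a binding site.

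The deposited table gives 1 mean per gene and group, and values per mouse were not analysed here. The authors' means below therefore carry no SD, no test across mice was run, and no difference can be set against the spread between mice. The means are in the authors' normalized unit, and a ratio divides the mean of the mutants by that of the controls. Reading the lowest value of a library as the worth of 1 read, an inference from the values, the 6 libraries were estimated at 37100000 to 49600000 reads, and their upper quartiles lay between 44.569 and 44.582. The targeted gene *Arid1b* averaged 97.6 in control and 38.0 in mutant libraries by the authors' means, a log2 ratio of -1.36.

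In these libraries the groups also differed in other transcripts. All 11 listed markers of dental epithelium had a higher mean in the mutants, with a median log2 ratio of 1.15. Their summed mean was 1689 in the controls and 10459 in the mutants. The enamel matrix genes *Ambn* (control and mutant means of 617.4 and 3360) and *Amelx* (361.9 and 3946) were the most abundant of them. Of 10 markers of dental mesenchyme, 8 had a lower mean in the mutants, and the median log2 ratio of the list was -0.24. *Gli1*, the gene that drives Cre in the mutants, had the lowest ratio of the list, at 106.4 and 46.1. *Twist1* and *Prrx1* were higher in the mutants, with log2 ratios of 0.22 and 0.07. Of 8 markers of odontoblasts, the cells that form dentin, 7 were lower, with a median of -0.28. The sex-linked transcript *Xist* had means of 3368 and 813.8 in controls and mutants, and sex is not among the labels used here. The means of the 4 Y-linked transcripts were at least 25.3 in the mutants and at most 0.0434 in the controls. The part of tissue composition and of sex in the values below was not tested, and in whole tissue fewer cells of a type and less RNA per cell cannot be told apart.

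None of the 9 genes had a ratio past 1.5-fold in either direction. Over all genes 13.2% were past 1.5-fold, and 3.06% of the 10311 genes whose mean reached 10, as that of all 9 genes does. For 4 of the 9 genes (*Fbn1*, *Fbn2*, *Tgfbi* and *Thbs1*) the larger mean was more than 25% above the smaller one, against 26.5% of all genes and 9.44% of those whose mean reached 10. A higher mean in the mutants was found for 3 genes (*Ltbp2*, *Ltbp4* and *Thbs1*). The share was 50.5% of all genes, 50.3% of those whose mean reached 10 and 43.2% of those whose mean reached 100. The median log2 ratio of the 9 genes was -0.12, compared with 0.0022 over all genes and -0.02 over the 2057 genes whose mean reached 100. Centred on the dental mesenchyme markers, which shifts every log2 ratio by 0.24, *Ltbp1*, *Ltbp3* and *Emilin1* were higher instead of lower, so that 6 of the 9 genes were higher and the median was 0.12.

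**Figure D1:**
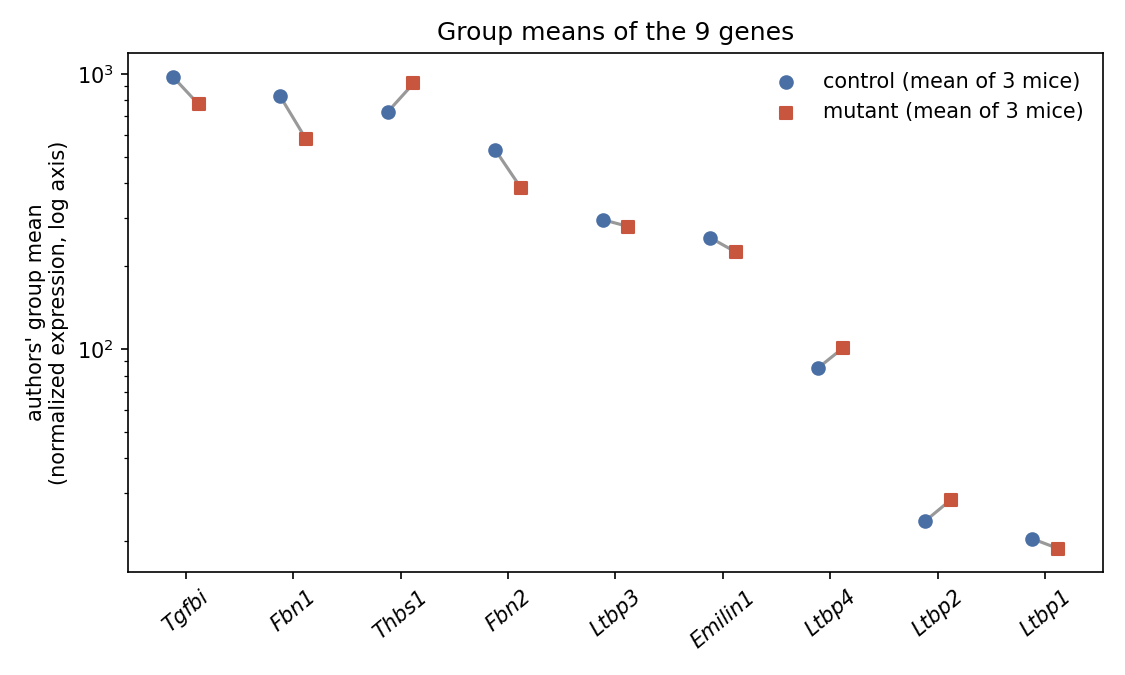
Authors' means of the 9 genes (normalized expression, log axis) in controls (circles) and mutants (squares), each the mean of 3 mice with no SD, joined by a line for each gene. The means span from 18.8 for *Ltbp1* in the mutants to 976.4 for *Tgfbi* in the controls, and *Ltbp2*, *Ltbp4* and *Thbs1* are the genes with the higher square.

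Fibrillins are the backbone of microfibrils, and mutations of *FBN1* cause Marfan syndrome. Both fibrillins had a lower mean in the mutants, and these were the lowest ratios of the 9 genes. *Fbn1* lies on chromosome 2 of GRCm38 from 125300594 to 125507993 and spans 207.4 kb, with 66 exons in its longest coding transcript. Its authors' mean was 827.4 in the controls and 578.4 in the mutants, a ratio of 0.699 and a log2 ratio of -0.52. Of the 344 genes nearest in rank, all the more abundant ones included (means of 342.4 to 81029), 3.20% had an absolute log2 ratio at least this large. Of the 295 genes within 2-fold of its mean, 2.71% did. The 95% exact binomial interval from the estimated reads, which covers counting error only, was -0.53 to -0.50.

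*Fbn2* encodes the fibrillin that is most prominent in developing tissues. The gene lies on chromosome 18 from 58008623 to 58210487, spans 201.9 kb and has 65 exons in its longest coding transcript. Its authors' mean was 529.4 in the controls and 384.7 in the mutants, a ratio of 0.727 and a log2 ratio of -0.46. Of the 469 genes nearest in rank (means of 277.5 to 81029), 3.84% had an absolute log2 ratio at least as large, and of the 577 genes within 2-fold of its mean, 2.60% did. The balance between both fibrillins differed little, since the level of *Fbn1* per kilobase of transcript was 1.44 times that of *Fbn2* in the controls and 1.39 times in the mutants. Centred on the dental mesenchyme markers, the log2 ratios were -0.28 for *Fbn1* and -0.22 for *Fbn2*, which remain lower but are smaller by over 1.5 times.

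The 4 LTBPs had no common direction. *Ltbp3*, which carries latent TGF-β and whose loss in humans causes enamel defects with short stature, was the most abundant of them. It lies on chromosome 19 from 5740904 to 5758532, and its authors' mean was 294.9 in the controls and 278.4 in the mutants, a log2 ratio of -0.08 that became 0.16 when centred on the dental mesenchyme markers. Among 500 genes of similar level, 45.4% had an absolute log2 ratio at least as large, so this difference is one that genes of its level commonly show.

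*Ltbp4*, a carrier of latent TGF-β that is also needed for elastic fibers, had a higher mean in the mutants. It lies on chromosome 7 from 27305136 to 27337692, and its authors' mean was 84.9 in the controls and 101.0 in the mutants, a ratio of 1.19 and a log2 ratio of 0.25. Of 500 genes of similar level, 10.6% had an absolute log2 ratio at least as large. For 4.00% of these genes the ratio was at least as large and in the same direction. With centring on the dental mesenchyme markers its log2 ratio was 0.49.

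*Ltbp2* is bound to fibrillin but, unlike the other LTBPs, does not bind latent TGF-β, and mutations of the human gene cause congenital glaucoma. It lies on chromosome 12 from 84783212 to 84876532. Its authors' mean was 23.6 in the controls and 28.3 in the mutants, a log2 ratio of 0.26 with a counting interval of 0.19 to 0.33. An absolute log2 ratio at least this large was found for 13.0% of 500 genes of similar level. The log2 ratio of *Ltbp2* centred on the dental mesenchyme markers was 0.50.

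*Ltbp1*, the prototype of the family, was the least abundant of the 9 genes. It lies on chromosome 17 from 75005568 to 75392512, as does *Arid1b* (4994332 to 5347656). The authors' mean of *Ltbp1* was 20.4 in the controls and 18.8 in the mutants, a log2 ratio of -0.12 with a counting interval of -0.20 to -0.04, and 43.6% of 500 genes of similar level had an absolute log2 ratio at least as large. Centred on the dental mesenchyme markers its log2 ratio was 0.12.

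*Emilin1* encodes a glycoprotein of elastic fibers and microfibrils that binds the TGF-β precursor and limits its processing. On chromosome 5 from 30913402 to 30921277, it is the shortest of the 9 genes, at 7.88 kb. Its authors' mean was 253.6 in the controls and 224.9 in the mutants, a ratio of 0.887. The log2 ratio was -0.17, and 0.065 when centred on the dental mesenchyme markers. Of 500 genes of similar level, 21.6% had an absolute log2 ratio at least as large.

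*Thbs1* encodes thrombospondin-1, a matricellular protein that releases active TGF-β from its latent complex. It had the highest ratio of the 9 genes. It lies on chromosome 2 from 118111876 to 118127133. Its authors' mean was 726.5 in the controls and 922.3 in the mutants, a ratio of 1.27 and a log2 ratio of 0.34. Of the 330 genes nearest in rank (means of 354.3 to 81029), 10.6% had an absolute log2 ratio at least as large, and of the 227 genes within 2-fold of its mean, 11.5% did. In the same direction the shares were 2.42% and 2.64%. The log2 ratio centred on the dental mesenchyme markers was 0.58, close to the 1.5-fold threshold. *Thbs1* is known as a gene induced quickly by serum, and of 13 immediate early and heat shock genes 11 had the higher mean in mutants. Their median log2 ratio was 0.27. Their summed mean was 95.2 in the controls and 126.2 in the mutants. Among them *Jun* had means of 18.3 and 29.3 and *Egr1* 7.96 and 14.7. Their part in the level of *Thbs1* was not tested. Platelets store much thrombospondin-1, and their defining transcript *Pf4* had means of 9.22 and 11.2. Of the other platelet markers, *Gp1bb* had means of 6.40 and 5.05, and *Ppbp* and *Itga2b* were near or under 1 in both groups. Endothelial cells and macrophages also make thrombospondin-1, and the median log2 ratios of their markers were 0.05 and 0.12. Over 7 markers of perivascular and smooth muscle cells the median was 0.18, with 4 higher and 3 lower.

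*Tgfbi* encodes a secreted adhesion protein induced by TGF-β, which is mutated in human corneal dystrophies. It lies on chromosome 13 from 56609523 to 56639562. Its authors' mean was 976.4 in the controls and 774.1 in the mutants, a ratio of 0.793 and a log2 ratio of -0.33. Of the 322 genes nearest in rank (means of 358.6 to 81029), 11.5% had an absolute log2 ratio at least as large, and of the 201 genes within 2-fold of its mean, 11.9% did. Centred on the dental mesenchyme markers its log2 ratio was -0.096. *Postn*, which encodes the related fasciclin domain protein periostin, had the opposite direction, at 264.2 in the controls and 333.0 in the mutants. The level of *Tgfbi* per kilobase was therefore 6.43 times that of *Postn* in the controls and 4.04 times in the mutants.

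**Figure D2:**
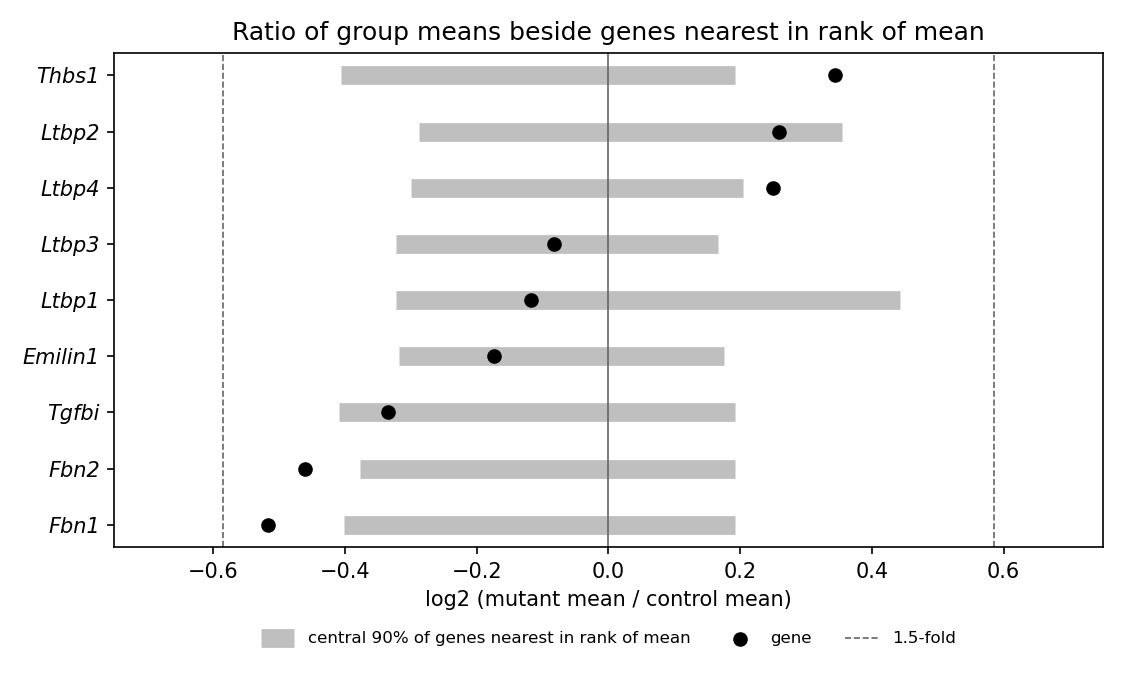
Log2 ratio of the mutant to the control mean for each of the 9 genes (points), beside the range that holds the central 90% of genes nearest in rank of mean (grey bars; up to 250 genes on either side, which for *Fbn1*, *Fbn2*, *Thbs1* and *Tgfbi* takes in every more abundant gene). Dashed lines mark 1.5-fold, and no point lies beyond them. *Fbn1*, *Fbn2*, *Thbs1* and *Ltbp4* lie outside their grey bars.

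For *Fbn1* and *Fbn2* the log2 ratio lay below the range holding the central 90% of the genes nearest in rank, with lower ends at -0.40 and -0.38. Among genes within 2-fold of their means the lower ends were -0.40 and -0.35. For *Thbs1* and *Ltbp4* it lay above the range, with upper ends at 0.19 and 0.20 by rank and 0.19 and 0.23 within 2-fold. These ranges describe how genes differ between the groups in these libraries and are not errors of the genes themselves. Among genes nearest in rank, the share at least as large in the same direction was 1.45% for *Fbn1* and 2.35% for *Fbn2*. It was 2.42% for *Thbs1*, 4.00% for *Ltbp4*, 7.20% for *Ltbp2* and 8.70% for *Tgfbi*. For *Emilin1*, *Ltbp1* and *Ltbp3* it was 16.4%, 18.0% and 31.8%.

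To compare levels between genes, each mean was divided by the length of the longest transcript. On this scale *Tgfbi* had the highest level, at 325.2 per kb in the controls and 257.8 in the mutants. *Thbs1* followed at 124.2 and 157.7. *Fbn1*, *Emilin1*, *Ltbp3* and *Fbn2* lay between 47.9 and 69.1 per kb in the controls and between 34.8 and 58.4 in the mutants. *Ltbp4* was at 15.8 and 18.7, and *Ltbp2* and *Ltbp1* were under 5 per kb in both groups. *Fbn1* was at rank 3 in the controls and rank 5 in the mutants, behind *Emilin1* and *Ltbp3*. This depended on the length used, since *Fbn1* was at rank 5 in the mutants with the coding length but at rank 3 in both groups with the union of exons. Without values per mouse, whether neighbours in this order differ beyond their spread could not be determined.

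**Figure D3:**
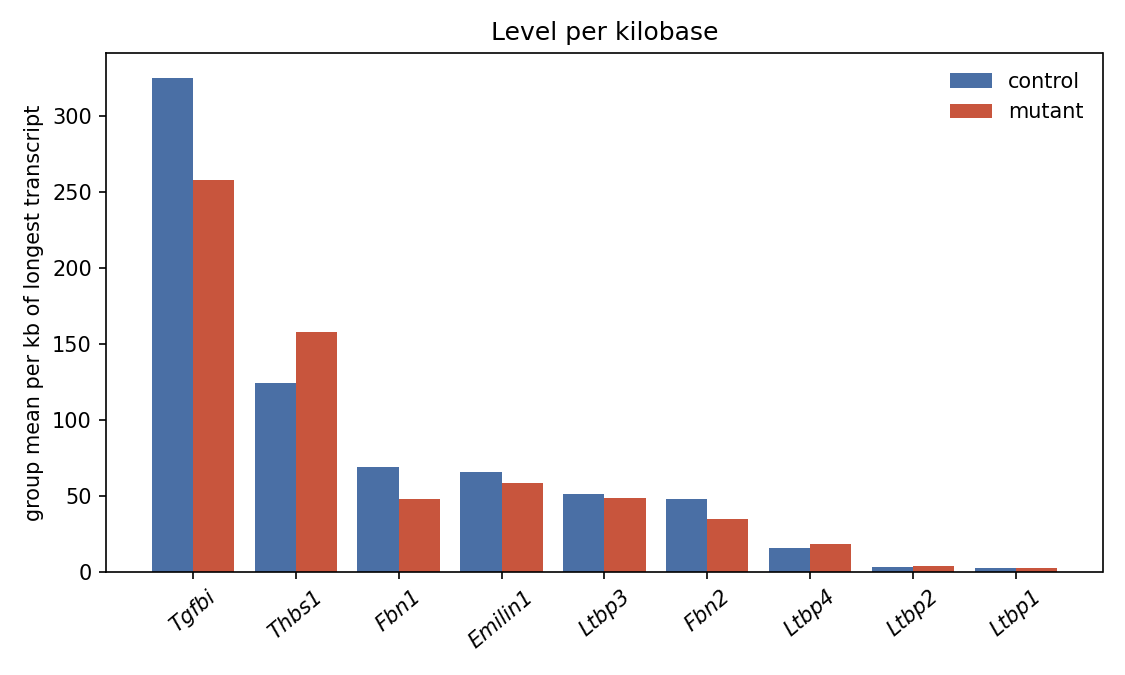
Authors' group means divided by the length of the longest transcript in kb (linear axis from 0) for controls and mutants, ordered by the level in the controls. *Tgfbi* stands highest at 325.2 and 257.8 per kb, and *Ltbp2* and *Ltbp1* lie under 5 per kb in both groups.

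Summed per kilobase, the 4 LTBPs reached 73.8 in controls and 74.3 in mutants, whereas both fibrillins were at 117.1 and 83.2. The fibrillin sum was thus 1.59 times the LTBP sum in the controls and 1.12 times in the mutants. Within the LTBPs, *Ltbp3* made up 69.8% of the sum in controls and 65.4% in mutants. The share of *Ltbp4* was 21.4% and 25.2%. The TGF-β ligands (*Tgfb1*, *Tgfb2* and *Tgfb3*) summed to 223.0 per kb in the controls and 218.3 in the mutants. The LTBP sum was 0.331 of the ligand sum in the controls and 0.341 in the mutants. The ratio of the LTBP sum to the ligand sum does not depend on the scaling of a group, and it differed less than the ratio of fibrillins to LTBPs did.

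Genes whose products act beside the LTBPs and fibrillins were described from further lists. The values of these lists were not centred on the dental mesenchyme markers, whose own median log2 ratio was -0.24. Of 24 partners of microfibrils and elastic fibers, 18 had a lower mean in the mutants and 6 a higher one, with a median log2 ratio of -0.12. The most abundant were *Fn1*, which encodes the fibronectin needed for LTBP deposition, and *Lox*, which encodes a crosslinking enzyme. *Fn1* had control and mutant means of 1469 and 1140, and *Lox* 402.9 and 337.0. *Emilin2*, a relative of *Emilin1*, had means of 237.4 and 175.5. *Eln*, which encodes elastin, had means of 41.1 and 43.2. Past 1.5-fold were 2 of the 24, *Efemp1* (4.84 and 9.23) and *Mfap5* (0.810 and 0.475), both at low levels, beside 13.2% of all genes.

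Of 18 genes for the release or tethering of latent TGF-β, 12 had a higher mean in the mutants, with a median log2 ratio of 0.17. Past 1.5-fold were 3 of the 18, beside 13.2% of all genes and 3.06% of those whose mean reached 10, as that of these 3 does. *Itgb6* encodes the β subunit of an epithelial integrin that activates TGF-β, and its means were 5.72 in the controls and 21.2 in the mutants. The convertase gene *Pcsk6* had means of 16.3 and 25.7, and the gelatinase gene *Mmp9* had means of 9.25 and 16.9. The epithelial markers above were higher in the same libraries, and their part in these values was not tested. The most abundant genes of the list, *Itgb1* (803.0 and 817.9) and the membrane protease gene *Mmp14* (437.3 and 416.5), had log2 ratios of 0.03 and -0.07.

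Of 8 TGF-β ligands and receptors, 5 were higher and none was past 1.5-fold, and *Tgfb2* and *Tgfb3*, the most abundant, had log2 ratios of 0.03 and -0.02. Among 8 other thrombospondins and thrombospondin receptors, 4 were higher and 4 lower. Past 1.5-fold were 2 of them, *Thbs2* and *Comp*, beside 13.2% of all genes. *Comp* was at a low level, with control and mutant means of 0.684 and 1.14. The mean of *Thbs2* reached 10, and 3.06% of such genes were past 1.5-fold. *Thbs2*, the closest paralog of *Thbs1*, had control and mutant means of 98.4 and 154.4, a log2 ratio of 0.65. On chromosome 17 from 14665500 to 14694235, *Thbs2* lies nearer to *Arid1b* than *Ltbp1* does. The part of position in the levels of *Thbs2* and *Ltbp1* was not tested. The level of *Thbs1* per kilobase was 7.44 times that of *Thbs2* in the controls and 6.02 times in the mutants. The receptor genes *Sdc1* and *Sdc4* had log2 ratios of -0.01 and -0.15.

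The 18 listed TGF-β response genes had no common direction, with 9 higher and 9 lower and a median log2 ratio of 0.01. The collagen genes *Col1a1* and *Col1a2*, the most abundant of the list, had log2 ratios of -0.31 and -0.30, whereas *Col3a1*, the next most abundant, had a log2 ratio of 0.31. Past 1.5-fold were 2 of the 18, beside 13.2% of all genes and 3.06% of those whose mean reached 10. These were *Tagln* (28.3 in the controls and 51.8 in the mutants), a gene of smooth muscle, and *Ccn1* (13.4 and 23.1), which encodes a matricellular protein. The feedback inhibitor gene *Smad7* had means of 64.4 and 62.5.

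**Figure D4:**
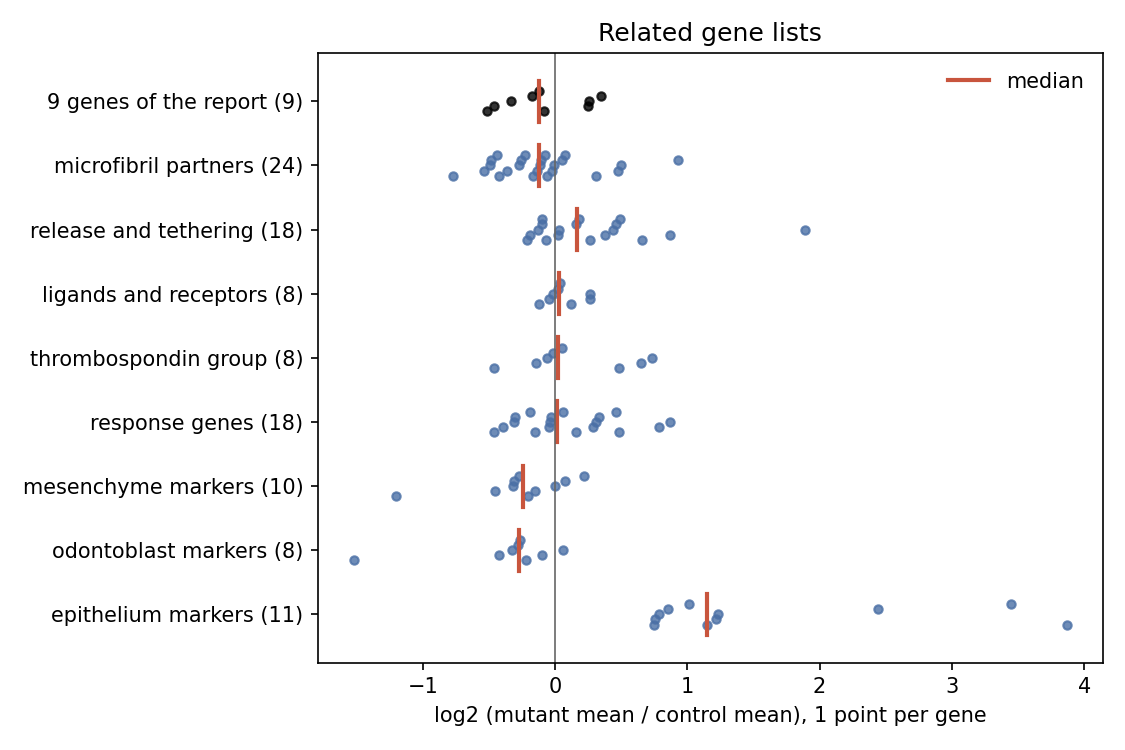
Log2 ratio of the mutant to the control mean for each gene (points) of the 9 genes of the report and of 8 related lists, with the number of genes in brackets and the median as a line. The median is -0.12 for the 9 genes and for the microfibril partners, 0.17 for release and tethering, 0.01 for response genes, and 1.15 for epithelium markers, all of which lie above 0.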

How the data were processed

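RNA from 3 control and 3 mutant mice was sequenced. Per the study's methods, trimming, alignment to mm10 and the comparison of groups were run in Partek Flow, and TopHat2 2.0.8 is named in the submitters' processing notes. The counting of reads, the annotation and the normalization are not given in the sources used here. The authors deposited a normalized signal per gene as 1 mean for each group, and a summary of this signal for each library. The table also holds the authors' p-values, FDR, ratios and fold changes, which were not used, nor was its filtered version. In the library summary, 2 numeric columns were not used. From the lowest value of a library, taken as (0 + 1) reads times a factor, reads were estimated; this is an inference.

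Ratios of the group means, log2 ratios, counts past 1.5-fold (the fold of the study's methods) and levels per kilobase were computed, with no test. Each gene was set beside up to 250 genes on either side in rank of mean level, fewer above the most abundant ones, and beside all genes within 2-fold of its mean. Lengths and positions are from GENCODE vM21 (GRCm38, the assembly named mm10), which matched all 9 genes. Counting intervals are exact binomial (Clopper-Pearson) at 95%. Ratios planted on the control means were recovered, which checks the calculation only, since no spread between mice was simulated. Genes and lists were chosen with earlier results of these data known. The text names the 9 genes, *Arid1b*, in each pathway list at most 3 genes past 1.5-fold whose higher mean reaches 10 and the 2 most abundant, markers of cell types whose list lies on 1 side, and sex-linked transcripts. *Gli1*, *Twist1*, *Prrx1*, *Pf4*, *Gp1bb*, *Ppbp*, *Itga2b*, *Col3a1*, *Postn*, *Emilin2*, *Eln*, *Efemp1*, *Mfap5*, *Smad7*, *Comp*, *Fosb*, *Ier3* and the sums over TGF-β ligands were named after their values were seen. The promoter motifs were chosen likewise. Scripts ran in Python 3.11.15 on pandas 2.3.3 and numpy 2.4.6. Intervals came from scipy 1.17.1, plots from matplotlib 3.10.9.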

Additional observations from a re-analysis of the deposited data

How the results depend on the processing

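With 1 mean per gene and group, no mouse could be left out in turn. No paired analysis was possible because no values per mouse were used. With the threshold lowered to a difference of 25% above the smaller mean, 4 of the 9 genes were past it in place of 0. The count of 0 past 1.5-fold was the same with a pseudocount of 1, after subtraction of the lowest mean and under 3 other scalings. The median log2 ratio of the 9 genes was -0.057 with group means rescaled to the same sum, -0.093 as a mean in place of a median, and -0.15 to -0.10 with 1 gene left out. Centring on the dental mesenchyme markers, added after the data were seen, gave a median of 0.12 with 6 genes higher and turned *Ltbp1*, *Ltbp3* and *Emilin1*, and no other alternative turned any of the 9 genes. Ordered by level per kb in the controls, 7 of the 9 genes kept their rank with the union of exons as length and 9 with the coding length. The sets of genes within 2-fold of a mean and the order in the mutants were also added after the data were seen. The estimated reads make counting error small for these genes, whereas the spread between mice, which limits every ratio here, was not measured.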
